A study of Mus musculus with 8 samples.

Results

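The RNAs described here are 87 long intergenic noncoding RNAs (lincRNAs) of mouse liver, out of 54532 genes in the count table. They were taken as the genes of the lincRNA biotype on chromosomes 1 to 19 with at least 1000 reads summed over all 8 libraries. Neat1 and Malat1 were left out, and Gm34667, Gm31333 and Gm36264 were always included. A total of 85 genes met the count sum, among them Gm34667 with 2187 reads. Gm31333 with 899 reads and Gm36264 with 778 reads lay under it. The lincRNAs just inside the limit were Gm48604 with 1005 and Gm35696 with 1007 reads. Those just outside were Gm26608 with 996 and Gm43672 with 977. The choice therefore rested on abundance for 84 genes, and on name for 3.

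Liver RNA was sequenced from mice with a floxed Matr3 gene, the gene of matrin-3, a nuclear protein that binds both DNA and RNA. The 4 groups of 2 libraries were female floxed, female LKO, male floxed and male LKO, all aged 16 weeks and fed chow. LKO mice also carried Albumin-Cre, which deletes the floxed gene in hepatocytes, so other liver cells keep it. The floxed alleles were present in every group, and no group carried Cre alone, so the effect of Cre and that of the deletion cannot be told apart. Each poly(A)-selected library came from the pooled RNA of 2 mice, and p-values therefore measure the spread between 2 pools per group. In bulk tissue, fewer cells of a type and less RNA per cell cannot be told apart.

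LincRNAs are spliced or unspliced polyadenylated transcripts of RNA polymerase II that lie between protein-coding genes and have no long open reading frame. Some are retained in the nucleus, some act on a neighbouring gene, some are only the carriers of small RNAs excised from their introns or exons, and for most no function is known. In liver many follow the sex-dependent pattern of growth hormone release, as do many genes of drug and steroid metabolism. Matrin-3 binds RNA through recognition of short pyrimidine-rich motifs, among them the pentamer AUCUU.

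Total counts lay between 28048469 and 43383157 per library, 21748 to 23194 genes were detected, and mitochondrial genes took 4.41 to 5.13% of the reads. Matr3 was at 52.7 to 59.3 CPM (counts scaled to a common library size with TMM factors) in the 4 floxed libraries and at 26.4 to 32.8 CPM in the 4 LKO libraries. The LKO mean was 55.6% of the floxed mean in females and 50.3% in males. The 5 hepatocyte marker genes together held 78578 to 115478 CPM, with the LKO libraries below the floxed ones in each sex, and none of the cell type markers examined was at 0.

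The 87 lincRNAs together took 0.142 to 0.168% of the reads of a library. Their mean level over the 8 libraries ran from 2.82 CPM to 222 CPM with a median of 7.63 CPM, against 9.12 CPM for all 16613 genes tested and 14.1 CPM for protein-coding genes. Gm26917 alone held 14.0% of the reads of the lincRNAs. It stands in the fixed list of rRNA-derived genes used here, and the origin of its reads was not tested. All 87 passed the filter on low counts. Per length, mean levels ran from 0.579 to 109 RPKM, the reads scaled by library size and exonic length, with a median of 3.81. AW112010, an immune-induced transcript, was the highest at 109 RPKM. Gm26917 followed at 66.6 RPKM, then Gm48633 at 33.3, 1810058I24Rik at 30.2 and 1810008I18Rik at 29.8 RPKM. 1810058I24Rik is annotated as a lincRNA in this table but is known to encode the mitochondrial micropeptide STMP1.

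In structure the lincRNAs were short genes close to coding ones. The median exonic length was 2420 bases (372 to 16543) and the median span on the chromosome 6.92 kb, and 17 had a single exon block. The nearest protein-coding gene lay within 5 kb for 48 of them and over 50 kb away for 16, with a median gap of 3.74 kb. Exons of 9 lincRNAs overlapped exons of another gene on the same strand, and those of 20 overlapped exons on the opposite strand. Reads of these cannot be assigned with certainty, since the strand setting of the counting is not known here.

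Spread over the 8 libraries differed widely among the lincRNAs. The coefficient of variation had a median of 17.9%, and the steadiest were 2900097C17Rik (5.56%, 88.4 to 102 CPM), Gm48633 (5.76%, 26.0 to 31.1 CPM) and 4932422M17Rik (5.84%, 5.98 to 7.24 CPM). Exons of 4932422M17Rik overlap those of AI480526 on the opposite strand over 1622 of 2639 bases, so its reads are less certain. The most variable were Gm6135 (105%), Gm35696 (97.9%) and BC049987 (94.3%), which differed between the sexes. Others varied mainly between pools of the same group, in a single group or in several. Gm10076 stood at 10.4 and 4.83 CPM in female floxed, 3.76 and 6.46 in female LKO, 5.32 and 16.0 in male floxed, and 8.76 and 6.58 in male LKO livers. B930025P03Rik stood at 10.1 and 2.4 CPM in the 2 male floxed libraries alone. For these genes no group difference could be separated from the spread between pools.

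Among the 87 lincRNAs, the largest genotype differences were those of the 3 included by name. Gm34667, Gm31333 and Gm36264 were all lower in LKO than in floxed livers of both sexes. Their LKO means were between 12.6 and 26.8% of the floxed means. They were included by name with this difference known, so their rank follows from the choice. Their values are a description and no test is given. Over all 512 lincRNAs tested, log2 fold changes in the mean of both sexes ran from -4.09 to 3.57. Gm34667 lies at chr12:109990882-110023873 (minus strand, mm10), Gm31333 at chr12:29139167-29199768 (plus strand) and Gm36264 at chr13:9001432-9076451 (minus strand). The sequences around their annotated starts are shown because these 3 genes carry the genotype difference. Each runs 5′ to 3′ from 250 bases before to 50 bases after the RefSeq start (GRCm38.p6). Capitals mark a match to TATAAA or CCAAT on either strand (for CCAAT, the other strand reads ATTGG).

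Gm34667 promoter, chr12:110023936-110024235, minus strand: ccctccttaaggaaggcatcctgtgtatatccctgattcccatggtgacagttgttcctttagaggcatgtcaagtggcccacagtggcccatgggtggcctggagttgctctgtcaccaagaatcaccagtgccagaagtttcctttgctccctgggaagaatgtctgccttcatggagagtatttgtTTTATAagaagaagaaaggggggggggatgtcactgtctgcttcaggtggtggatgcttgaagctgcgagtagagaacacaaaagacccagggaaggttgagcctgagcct
Gm31333 promoter, chr12:29141679-29141978, plus strand: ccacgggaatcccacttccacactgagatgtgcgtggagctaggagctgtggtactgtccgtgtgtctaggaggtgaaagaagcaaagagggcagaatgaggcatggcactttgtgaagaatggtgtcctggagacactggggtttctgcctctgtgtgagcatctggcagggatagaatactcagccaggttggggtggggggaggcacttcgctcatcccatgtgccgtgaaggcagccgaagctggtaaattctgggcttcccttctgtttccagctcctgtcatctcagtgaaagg
Gm36264 promoter, chr13:9076325-9076624, minus strand: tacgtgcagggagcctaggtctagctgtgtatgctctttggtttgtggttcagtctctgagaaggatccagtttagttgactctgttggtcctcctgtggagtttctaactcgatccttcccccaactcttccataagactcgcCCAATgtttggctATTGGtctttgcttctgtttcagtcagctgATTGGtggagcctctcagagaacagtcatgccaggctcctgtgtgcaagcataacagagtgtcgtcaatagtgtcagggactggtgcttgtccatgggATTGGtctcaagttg

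The Gm36264 sequence held 4 matches to CCAAT, the Gm34667 sequence 1 to TATAAA on the other strand (read as TTTATA), and the Gm31333 sequence neither. The RefSeq start of Gm31333 lies 2762 bases from the start in the deposited table, while those of Gm34667 and Gm36264 lie 112 and 77 bases away. RefSeq sequences were found for 52 of the 87 lincRNAs. CCAAT stood in at least 1 promoter of 36.5% of these and of 41.1% of all 27025 genes with a promoter sequence, and TATAAA in 13.5% and 15.7%. Such a match is a string of letters and not a shown binding site.

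Gm34667 was at 15.3 and 16.2 CPM in female floxed and at 2.67 and 1.31 CPM in female LKO livers. Male floxed livers held 11.7 and 8.34 CPM, and male LKO livers 2.28 and 2.34 CPM. All 4 LKO libraries were therefore below all 4 floxed libraries, and the raw counts were 41 to 117 against 261 to 665. The log2 fold change was -2.95 (SE 0.281) in females and -2.12 (SE 0.288) in males, or 7.93-fold and 4.35-fold lower by group means. Without the first female LKO pool the female value was -3.59, where the remaining pool was at 1.31 CPM.

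Gm31333 stood at 4.83 and 5.73 CPM in female floxed, 0.707 and 1.05 in female LKO, 6.67 and 4.83 in male floxed, and 0.471 and 1.06 CPM in male LKO livers. No LKO library reached any floxed library, and the LKO values rest on 13 to 33 reads each. The log2 fold change was -2.61 (SE 0.335) in females and -2.91 (SE 0.355) in males, where it was -3.60 without the second LKO pool.

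Gm36264 stood at 3.29 and 3.29 CPM in female floxed, 0.935 and 0.828 in female LKO, 6.4 and 5.66 in male floxed, and 1.16 and 1.02 CPM in male LKO livers. Its pools agreed most closely of the 3, and floxed males were higher than floxed females. The log2 fold change was -1.89 (SE 0.207) in females and -2.46 (SE 0.207) in males. In all 3 genes the LKO level was a smaller share of the floxed level than for Matr3 itself.

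**Figure D1:**
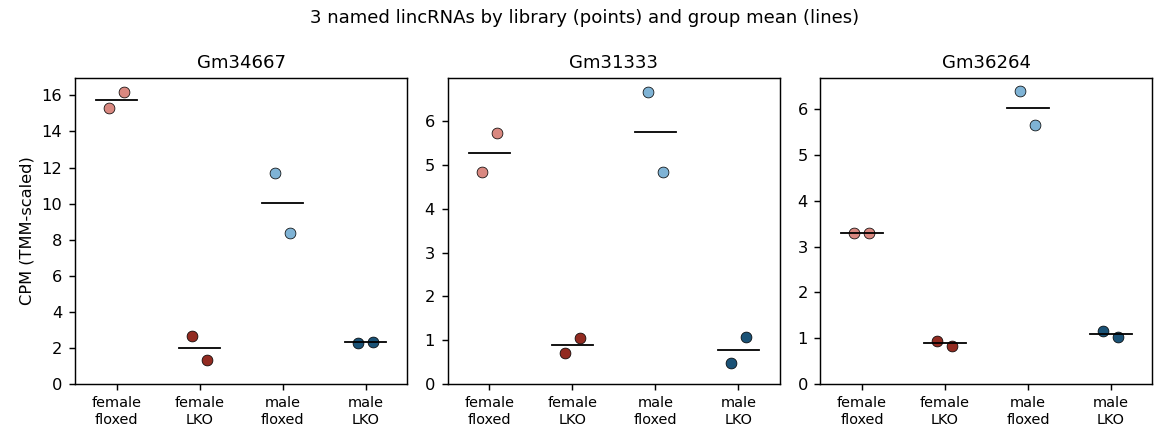
CPM (TMM-scaled, linear axis from 0) of Gm34667, Gm31333 and Gm36264 in each library (points), with the mean of the 2 libraries of a group (lines). In each panel both LKO groups sit below both floxed groups, at 0.471 to 2.67 CPM against 3.29 to 16.2 CPM.

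These 3 lincRNAs had long, spliced gene bodies. Gm34667 spanned 33.0 kb with 3 exon blocks, Gm31333 60.6 kb with 9 and Gm36264 75.0 kb with 5, against the median of 6.92 kb. Other lincRNAs with a long span had smaller differences, and whether the span has a part in the fall was not tested. Of the 13 lincRNAs that span at least 30 kb, a limit chosen after the values were seen, the other 10 had log2 fold changes between -0.40 and 0.17 in the mean of both sexes. The longest, 9030622O22Rik (95.5 kb), known as Falcor and transcribed beside Foxa2, was at 10.9 to 16.1 CPM in females and 8.58 to 14.1 CPM in males. Its log2 fold change was -0.35 (edgeR adjusted p = 0.226), and that of Foxa2 -0.49 (adjusted p = 0.188).

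Neighbouring coding genes did not show the same size of difference. Gtpbp4, a GTP-binding protein of ribosome assembly that lies 5.35 kb from Gm36264, had log2 fold changes of -0.25 in females and -0.03 in males. Eipr1, 269 kb from Gm31333, had 0.20 and 0.12. Dio3, the thyroid hormone-inactivating deiodinase 255 kb from Gm34667, was too low to be tested.

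The first match to ATCTT, the DNA form of the AUCUU pentamer, in the transcript of each of the 3 genes is shown with 20 bases on either side (GENCODE M21 transcripts, capitals mark the match). The pentamer is shown because matrin-3 is known to recognise it.

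Gm34667: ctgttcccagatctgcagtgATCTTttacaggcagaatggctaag
Gm31333: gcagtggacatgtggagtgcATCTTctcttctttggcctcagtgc
Gm36264: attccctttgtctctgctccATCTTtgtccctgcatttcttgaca

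On the transcript strand the pentamer occurred 2 times in the 1258 bases of Gm34667, 4 times in the 2225 bases of Gm31333 and 1 time in the 1142 bases of Gm36264. That is 1.59, 1.8 and 0.876 per kb. The median was 1.2 per kb over the 87 lincRNAs (quartiles 0.634 and 1.71), 1.16 over the 512 lincRNAs tested and 0.972 over 13646 protein-coding genes. Gm34667 and Gm36264 thus lay between the quartiles, and Gm31333 just above the upper one. Introns were not searched.

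Summed markers of liver cell types were also set beside these genes. The 8 stellate and mesenchymal markers summed to 396 to 421 CPM in female floxed and 322 to 337 in female LKO libraries, and to 302 to 389 and 249.8 to 265 CPM in males, and 3 of the 8 were lower in the mean of both sexes. The 5 bile duct markers summed to 80.3 to 90.0 CPM in female floxed and 41.1 to 45.3 in female LKO livers, but to 58.0 to 65.9 and 42.2 to 75.9 CPM in males, where the ranges overlapped. In the mean of both sexes 0 of the 5 passed with edgeR, 5 had an unadjusted p under 0.05 (18.2% of all genes), and DESeq2 called 2 and limma-voom 0. The 7 endothelial markers summed to 212 to 223 CPM in female floxed and 181 to 199 in female LKO livers, and to 168 to 195 and 152 to 179 CPM in males. The 5 hepatocyte markers summed to 111867 to 115478 CPM in female floxed and 104843 to 108630.4 in female LKO livers. In males their sums were 85355 to 100253 and 78578 to 81656 CPM, and 1 of the 5 was lower in the mean of both sexes. The 7 lymphocyte markers summed to 7.42 to 8.9 CPM in female floxed and 6.25 to 7.8 in female LKO livers. Male sums of these were 7.23 to 10.3 and 4.6 to 5.08 CPM, without overlap. The 7 Kupffer cell markers summed to 315 to 319 and 326 to 332 CPM in females, and to 222 to 230.1 and 180.0 to 234 CPM in males. The 3 lincRNAs, included with their difference known, had larger fold differences than any of these sums in both sexes. A comparison of sizes does not show whether these cells have a part in the difference, and this was not tested.

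Most of the other 84 lincRNAs did not pass the genotype test. The share that did was above the background in females (4.76%) and in the mean of both sexes (3.57%). In females 4 of 84 passed the threshold (edgeR quasi-likelihood test, Benjamini-Hochberg adjusted p under 0.05 over all genes), against a background of 0.584% of all genes tested. Of the 512 lincRNAs tested, which include these 84 and the 3 named, 8 passed. Among the 4, 9030616G12Rik rose (background for rises 0.271%), and Gm5524, Gm15408 and 1810008I18Rik fell (background for falls 0.313%). In the mean of both sexes 3 of 84 passed (background 1.75%). Gm43597 and 9030616G12Rik rose (background for rises 0.777%) and 1810008I18Rik fell (background for falls 0.975%).

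In males 0 of 84 passed (edgeR), where the background was 0.205%. At an unadjusted p under 0.05 there were 13 (background 11.8%), DESeq2 called 5 (1.56% of all genes) and limma-voom 0. The 8 immediate early genes, which respond within minutes to stress and handling, summed to 122 to 182 CPM in male floxed and 294 to 521 CPM in male LKO libraries. In females they summed to 152 to 169.8 and 193 to 215 CPM, and their part in the values of either sex was not tested. Without either male floxed pool, the edgeR counts in females and in the mean rose, and without the second the male count rose too. Both the female count and that of the mean fell without either female floxed pool, either male LKO pool or the second female LKO pool. Without the first female LKO pool the female count fell. The share of all genes called was not computed for these fits, so whether such shifts concern these lincRNAs or the whole table is not known here.

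9030616G12Rik, on chr10:128971197-128978115, was at 8.13 and 7.05 CPM in female floxed, 13.8 and 13.3 in female LKO, 8.32 and 8.22 in male floxed, and 9.41 and 9.4 CPM in male LKO livers. The LKO libraries were higher without overlap in both sexes, by a wide step in females and a small one in males. The log2 fold change was 0.84 in females (SE 0.116, edgeR adjusted p = 0.0219), 0.19 in males (adjusted p = 0.578) and 0.51 in the mean (adjusted p = 0.025). Its nearest coding gene Mettl7b, a lipid droplet-associated methyltransferase 10.2 kb away, had 0.27 in females (adjusted p = 0.217).

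Gm43597, on chr5:150599932-150607003 and 1004 bases from N4bp2l2, was higher in LKO livers of both sexes. It stood at 4.44 and 4.92 CPM in female floxed, 9.44 and 7.74 in female LKO, 4.24 and 3.68 in male floxed, and 6.73 and 6.84 CPM in male LKO livers. The groups did not overlap in either sex. The log2 fold change was 0.83 in the mean (SE 0.114, edgeR adjusted p = 0.0164), with 0.88 in females and 0.78 in males. N4bp2l2, on the same strand, had -0.12 (adjusted p = 0.295).

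1810008I18Rik, on chr7:65803111-65806449, was among the more abundant lincRNAs. It was at 100.3 and 96.6 CPM in female floxed, 55.0 and 35.2 in female LKO, 96.6 and 73.7 in male floxed, and 62.3 and 66.8 CPM in male LKO livers. Both sexes were lower in LKO without overlap. The log2 fold change was -1.12 in females (SE 0.194, edgeR adjusted p = 0.0481), -0.40 in males (adjusted p = 0.455) and -0.76 in the mean (adjusted p = 0.0329). Pcsk6, a proprotein convertase 55.3 kb away, had 0.07 in the mean (adjusted p = 0.812).

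Gm15408 was at 7.26 and 6.78 CPM in female floxed, 3.26 and 1.85 in female LKO, 6.82 and 5.4 in male floxed, and 5.14 and 5.52 CPM in male LKO livers. The female groups were apart and the male groups overlapped, and the log2 fold change was -1.44 in females (SE 0.245, edgeR adjusted p = 0.048) and -0.20 in males (adjusted p = 0.794). Gm5524 was at 12.9 and 12.3 CPM in female floxed, 7.78 and 7.64 in female LKO, 10.1 and 10.3 in male floxed, and 10.3 and 8.78 CPM in male LKO livers. Its pools were close in females, and the log2 fold change was -0.71 there (SE 0.118, edgeR adjusted p = 0.0444), against -0.10 in males. Exons of Gm5524 overlap those of Gm18776 on the opposite strand over 645 of 2002 bases, so its reads cannot be assigned with certainty.

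Each of these 7 calls ended when some single library was left out, always including either female floxed pool and either male LKO pool. For 9030616G12Rik in females the edgeR adjusted p was then at most 0.231, and for Gm43597 in the mean at most 0.0974. For 1810008I18Rik and Gm15408 in females it was at most 0.334, and for Gm5524 at most 0.37. The female calls of 1810008I18Rik and Gm15408 also ended when 2 libraries had to reach 1 CPM (adjusted p = 0.0544 and 0.0527), and both calls of 1810008I18Rik with a robust prior (0.101 and 0.0751).

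**Figure D2:**
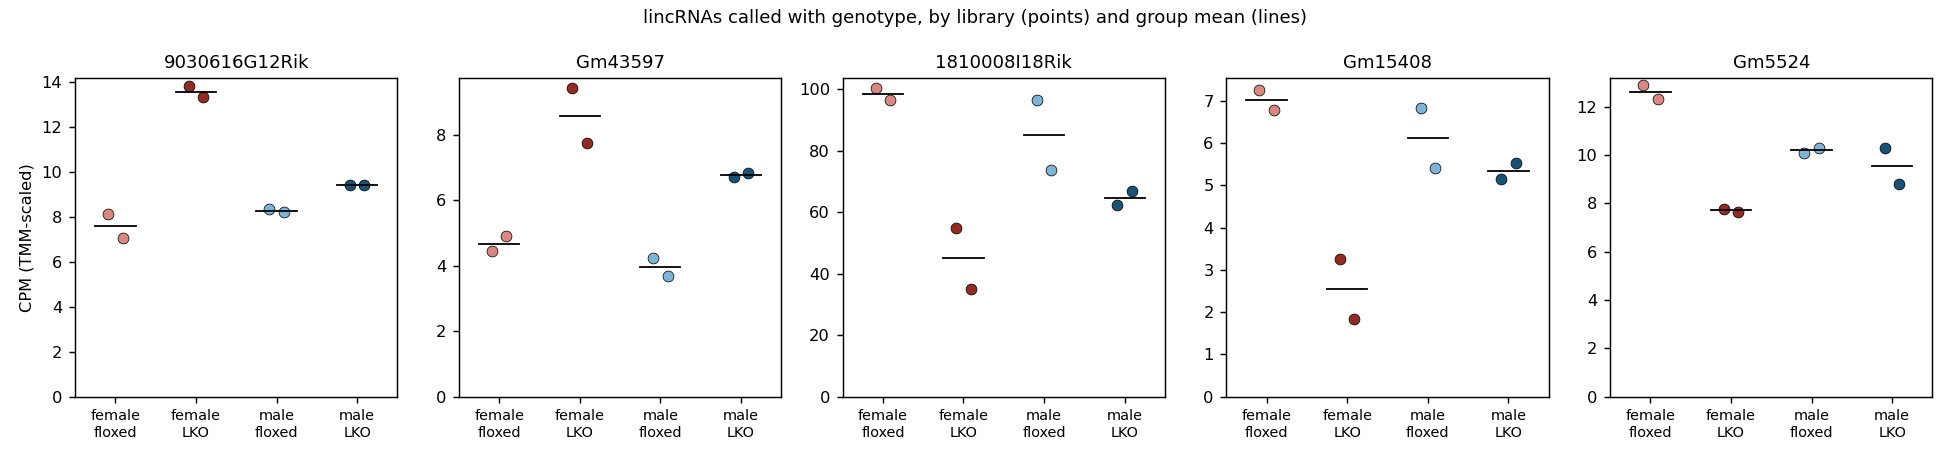
CPM (TMM-scaled, linear axes from 0) of the 5 lincRNAs that passed the genotype test in females or in the mean of both sexes, by library (points) and group mean (lines). Gm43597 and 1810008I18Rik were displaced in the same direction in both sexes, while for Gm15408 and Gm5524 the LKO and floxed libraries were apart in females and overlapped in males. The test of the sex difference did not pass for either (edgeR adjusted p = 0.511 for both).

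The size of the genotype difference was set beside that of all genes. The absolute log2 fold change was under 0.5 for 64 of the 84 lincRNAs in females and for 77 in males. Among the 16613 genes tested it was so for 13851 in females and 13786 in males. The share of small differences was thus lower in these lincRNAs than in all genes in females, and higher in males. The median was -0.05 in females and 0.05 in males, against -0.00 and -0.01 over all genes tested. In females 34 of 84 were lower in both LKO pools than in both floxed pools, and 20 were higher, where the background was 25.3% in either direction. In males these counts were 13 (background 20.1%) and 18 (background 19.9%). In both sexes together, 8 of 84 were higher without overlap (background 7.9%) and 4 of 84 lower (background 7.8%), shares near the background.

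The lincRNAs apart in both sexes included some that did not pass the test. Gm17753 had log2 fold changes of -0.71 in females and -0.49 in males, with an edgeR adjusted p of 0.0697 in the mean. A930038B10Rik had -0.50 and -0.92 (adjusted p = 0.064). Gm44421 had 1.20 and 0.44 (adjusted p = 0.117), with 2.43 and 5.0 CPM in female floxed and 9.63 and 7.42 in female LKO livers. The 2 female floxed pools of Gm44421 were thus far apart from each other as well.

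**Figure D3:**
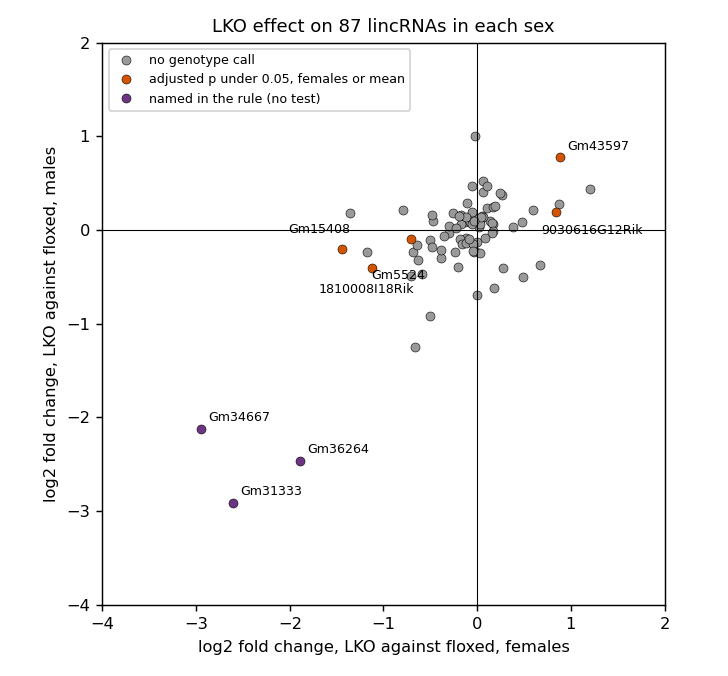
Log2 fold change of LKO against floxed in females (x axis) and males (y axis) for the 87 lincRNAs, 1 point each. Gm34667, Gm31333 and Gm36264 lie apart at the lower left, between -1.89 and -2.95 in both sexes, and the other 84 lie between -1.44 and 1.20.

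The genotype effect was also compared between the sexes. The test of this difference called 0 of 84 lincRNAs with edgeR (background 0.00602%), with 16 at an unadjusted p under 0.05 (background 7.16%), 2 with DESeq2 (0.47% of all genes) and 0 with limma-voom. The absolute log2 difference of the effects was at least 1 in 4 of the 84 lincRNAs and in 1289 of the 16613 genes tested. The 4 were Gm31583, Gm15408, BC049987 and Mir17hg. Gm31583 stood at 19.3 and 19.6 CPM in female floxed and 6.75 and 8.44 CPM in female LKO livers. Male floxed livers held 50.4 and 82.2 CPM, and male LKO livers 63.7 and 86.3 CPM. The female groups were far apart and the male groups overlapped, and the female effect minus the male effect was -1.54 (log2, SE 0.324, edgeR adjusted p = 0.345).

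Mir17hg is the host transcript of the miR-17-92 cluster, a set of microRNAs known for promoting cell proliferation. It was at 5.33 and 5.83 CPM in female floxed, 8.99 and 8.79 in female LKO, 3.36 and 2.91 in male floxed, and 2.28 and 2.56 CPM in male LKO livers. It was thus higher in LKO females and lower in LKO males, without overlap in either sex. The difference of the effects was 1.05 (log2, SE 0.227, edgeR adjusted p = 0.372), and neither sex passed on its own (adjusted p = 0.0999 and 0.431). The mature microRNAs that map inside Mir17hg are shown, 1 arm per hairpin, because they are what this transcript is known for (RefSeq, GRCm38.p6). Capitals mark the seed, bases 2 to 8.

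miR-17-5p: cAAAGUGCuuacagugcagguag
miR-20a-5p: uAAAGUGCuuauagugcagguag
miR-18a-5p: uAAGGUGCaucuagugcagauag
miR-19a-3p: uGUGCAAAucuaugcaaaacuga
miR-19b-3p: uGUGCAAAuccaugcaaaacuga
miR-92a-3p: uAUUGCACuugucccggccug

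miR-17-5p and miR-20a-5p shared the seed AAAGUGC, and miR-19a-3p and miR-19b-3p shared GUGCAAA. The libraries measured the polyadenylated host transcript and not these microRNAs.

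Sex separated many more of the lincRNAs than genotype did. Averaged over both genotypes, 22 of 84 differed between females and males (edgeR, adjusted p under 0.05). The background was 15.8% of all genes and 14.5% of the lincRNAs tested, a set that includes these 84. Of the 22, 11 were higher in females (background 7.69%) and 11 in males (background 8.14%). All 4 female libraries lay above all 4 male libraries for 11 of 84 (background 8.94%) and below them for 14 (background 8.92%). The absolute log2 difference was at least 1 in 12 of the 84, 5 higher in females and 7 in males. It reached that size in 1046 of the 16613 genes tested. A lincRNA abundant in 1 sex can meet the count sum through that sex alone, so the count describes this list and supports nothing further. The protein-coding genes of known female bias (12) and of known male bias (12) that were examined all differed between the sexes in their known direction.

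Gm6135 was the most female-biased, at 24.0 and 24.7 CPM in female floxed and 13.0 and 15.2 in female LKO livers. Male floxed livers held 0.901 and 0.831 CPM, and male LKO livers 1.27 and 0.731 CPM. Every female library lay above every male one, by 4.31 on the log2 scale (SE 0.146, edgeR adjusted p = 1.84e-07). Its level in LKO females was below that in floxed females (log2 -0.79, adjusted p = 0.0648).

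Gm44787 was at 8.39 to 11.5 CPM in the 4 female and 1.31 to 2.76 CPM in the 4 male libraries (log2 difference 2.38, edgeR adjusted p = 0.000114). Gm42047, the second most counted of the lincRNAs after Gm26917, was at 142 to 195 CPM in females and 36.8 to 81.9 CPM in males (1.58, adjusted p = 0.000145). Gm36041 was at 8.95 to 14.1 CPM in females and 3.36 to 4.83 in males (1.44, adjusted p = 5.84e-05), and Mir17hg differed by 1.35 (adjusted p = 7.76e-05). In all 4 the female and male libraries did not overlap.

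Smaller female excesses were seen in AW112010 (0.47), Gm27216 (0.66) and 5031425E22Rik (0.41). AW112010 was at 90.3 to 101 CPM in females and 65.2 to 79.6 CPM in males (edgeR adjusted p = 0.00153). The 7 Kupffer cell markers differed the same way, at a sum of 315 to 332 CPM in females and 180.0 to 234 in males, and 5 of the 7 were higher in females. Their part in the AW112010 difference was not tested. The call of Gm27216 ended without the second female floxed pool (adjusted p = 0.052) or the second male LKO pool (0.057). That of 5031425E22Rik ended without the second female floxed pool or any 1 of the 4 LKO pools (0.0643 to 0.086).

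Gm35696 was the most male-biased, at 0.366 to 0.547 CPM in the 4 female and 6.76 to 9.84 CPM in the 4 male libraries. The log2 difference was -4.14 (females against males, SE 0.184, edgeR adjusted p = 1.17e-06). With 1007 reads it was among the lincRNAs nearest the count limit, and it met that limit through the male libraries.

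BC049987 was at 3.66 and 3.51 CPM in female floxed, 3.44 and 3.66 in female LKO, 12.2 and 21.8 in male floxed, and 31.0 and 37.0 CPM in male LKO livers. Males were higher throughout (log2 -2.75, SE 0.178, edgeR adjusted p = 1.44e-05). In males the LKO pools were above the floxed pools by 1.00 on the log2 scale (adjusted p = 0.147). Gm31583, described above for its female difference, was lower in females by -2.54 (adjusted p = 1.65e-05). The promoter sequences of BC049987 and Gm31583 are shown because each lay beside a coding gene with a sex difference in the same direction. They follow RefSeq (GRCm38.p6) as before. Capitals mark the 2 boxes searched above and, in Gm31583, the motif TTGCNNAA, the core of C/EBP-type sites, on either strand.

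BC049987 promoter, chr9:44672211-44672510, minus strand: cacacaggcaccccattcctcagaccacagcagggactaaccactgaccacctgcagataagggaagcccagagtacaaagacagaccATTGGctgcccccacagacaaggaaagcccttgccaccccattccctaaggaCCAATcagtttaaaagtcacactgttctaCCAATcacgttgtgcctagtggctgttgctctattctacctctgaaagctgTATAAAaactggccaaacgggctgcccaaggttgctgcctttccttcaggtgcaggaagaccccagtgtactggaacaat
Gm31583 promoter, chr16:24090016-24090315, minus strand: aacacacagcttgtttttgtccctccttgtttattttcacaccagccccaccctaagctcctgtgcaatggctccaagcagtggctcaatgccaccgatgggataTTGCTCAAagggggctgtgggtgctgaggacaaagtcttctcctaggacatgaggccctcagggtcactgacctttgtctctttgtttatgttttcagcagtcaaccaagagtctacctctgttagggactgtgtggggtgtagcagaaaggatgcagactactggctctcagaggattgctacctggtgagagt

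The BC049987 sequence held 1 match to TATAAA and 3 to CCAAT, and the Gm31583 sequence 1 to TTGCNNAA. TTGCNNAA stood in 13.5% of the 52 lincRNAs with a promoter sequence and in 12.2% of all genes. TTCNNNGAA, the core of STAT sites, stood in neither sequence, in 11.5% of the 52 and in 9.55% of all genes. CAAAGTCCA, read as an HNF4A site, stood in only 1 of the 52 (1.92%) and in 0.555% of all genes.

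Another 5 lincRNAs were more abundant in males by at least 0.8 on the log2 scale. Gm38416 was at 1.41 to 3.76 CPM in females and 5.56 to 13.2 CPM in males (-1.79, edgeR adjusted p = 0.00181). C730027H18Rik was at 4.61 to 7.26 and 11.1 to 13.8 CPM (-1.10, adjusted p = 4.29e-05). AI463229 was at 6.17 to 7.6 and 10.5 to 19 CPM (-1.08, adjusted p = 0.000133). The male floxed libraries of AI463229, 17.8 and 19 CPM, lay above the male LKO libraries, 10.5 and 13.3 CPM (log2 -0.62, adjusted p = 0.137). C730036E19Rik differed by -1.06 and 5033406O09Rik by -0.81 (adjusted p = 0.000418 and 0.0019).

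**Figure D4:**
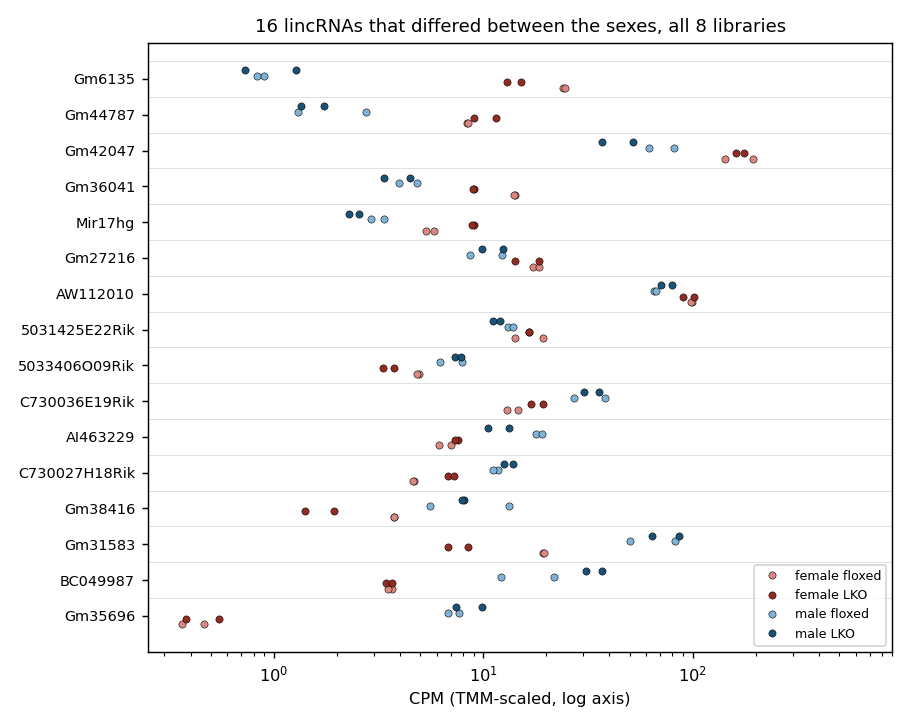
CPM (TMM-scaled, log axis) in all 8 libraries of 16 lincRNAs that differed between the sexes, ordered by their log2 difference, with colours for the 4 groups. Female libraries lie to the right in the upper 8 rows and male libraries in the lower 8, from 4.31 in favour of females for Gm6135 to -4.14 for Gm35696.

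The lincRNAs were set beside their nearest protein-coding genes. Of the 22 that differed between the sexes, 19 had a neighbour that was tested, and 8 of these neighbours also differed between the sexes, 7 in the same direction. Of the 55 other lincRNAs with a tested neighbour, 6 neighbours differed, and of all genes tested 15.8% did. Across the 74 pairs the log2 differences between the sexes had a Pearson correlation of 0.58 and a Spearman correlation of 0.43. These are descriptions over pairs measured in the same libraries. For the genotype effect they were 0.21 and 0.15 in females and 0.15 and 0.16 in males.

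BC049987 and Treh lay head to head on opposite strands with 995 bases between them. Treh encodes trehalase, which splits the sugar trehalose. Treh stood at 0.235 and 0.439 CPM in female floxed, 0.639 and 0.828 in female LKO, 1.83 and 1.85 in male floxed, and 4.85 and 4.1 CPM in male LKO livers. It was higher in males, as BC049987 was (log2 -2.52, edgeR adjusted p = 0.000109), and it rose in LKO livers in the mean of both sexes (1.18, adjusted p = 0.0404). Treh did not pass in females (adjusted p = 0.228), where its level was low, or in males (0.125). How its call depends on single libraries is not given here. BC049987 had 0.49 in the mean of both sexes (adjusted p = 0.188), with -0.02 in females and 1.00 in males.

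Gm31583 lay 96.2 kb from Bcl6, a transcriptional repressor known to be male-biased in liver. Bcl6 stood at 11.1 to 19.6 CPM in females and 42.4 to 92.4 CPM in males (log2 -2.22, edgeR adjusted p = 0.000501). In females the LKO effect on Bcl6 was 0.34 (adjusted p = 0.72), against -1.36 for Gm31583 (adjusted p = 0.0534), and in males both had 0.18. None of these LKO values passed.

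On the female-biased side, Gm36041 lay 13.5 kb from Avpr1a, the hepatic vasopressin receptor, which was higher in females by 1.28 (edgeR adjusted p = 2.86e-05). Gm44787 lay 3.92 kb from Wsb1, a substrate adaptor of a ubiquitin ligase, which was higher by 1.33 (adjusted p = 0.00015). Gm6135 lay 244 kb from Tet2, a DNA demethylase, which was higher by 0.54 (adjusted p = 0.014). By contrast Tbk1, 20.4 kb from Gm35696, differed by 0.04 (adjusted p = 0.64), and Sdr42e1, 7.93 kb from Gm38416, by 0.08 (adjusted p = 0.556).

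**Figure D5:**
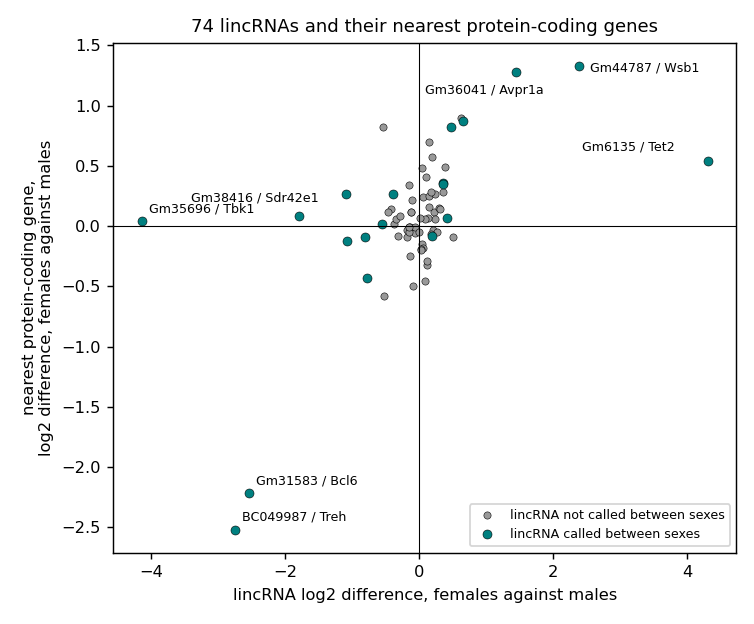
Log2 difference of females against males for 74 lincRNAs (x axis) and for the nearest protein-coding gene of each (y axis), teal where the lincRNA differed between the sexes. The pairs of BC049987 with Treh and Gm31583 with Bcl6 lie at the lower left, and Gm35696 and Gm38416 lie near 0 on the y axis.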

How the data were processed

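The authors deposited raw read counts per gene for 8 libraries, with gene length and coordinates. Per the submitters' processing notes, HISAT2 2.0.5, featureCounts 1.5.0-p3 and mm10 were used. Not given in the sources used here are the annotation release, the strand setting and the treatment of shared reads. The 3 lines without a gene were left out.

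All 8 libraries were fitted together in R 4.3.3 with edgeR 4.0.16 (limma 3.58.1): TMM factors, filterByExpr, 1 coefficient per group, quasi-likelihood tests, Benjamini-Hochberg adjustment over the 16613 genes tested and a threshold of 0.05. The LKO effect was tested within each sex, averaged over the sexes and compared between them, and females were tested against males over both genotypes. CPM used TMM factors, and RPKM the deposited exonic length. Counts of calls among the 84 exclude the 3 named genes, while those over all genes or all lincRNAs tested include them.

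The members and lists were chosen with earlier results of these data known. Named were the 3 genes of the rule, members called with genotype, up to 8 called per sex, the 6 smallest p per genotype contrast, the 10 highest RPKM and the members of fixed lists. Others were chosen after their values were seen. Sequences came from RefSeq and GENCODE M21 (coordinates equal for 85 of 87), and the nearest protein-coding genes from the deposited coordinates. As alternatives, each library was left out in turn (a lone library was assumed to vary as the rest do), DESeq2 1.42.0 and its size factors were used, limma-voom, a robust prior and a block for the replicate number were fitted, and the filter was dropped or set to 1 CPM in 2 libraries. Fits of the libraries of 1 sex alone were also run. Same-numbered libraries did not deviate together (correlations -0.102 to 0.057).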

Additional observations from a re-analysis of the deposited data

How the results depend on the processing

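Counts of lincRNAs that passed the genotype test depended on the method and the libraries. The share of all genes called under the same setting stands in parentheses. In females the count was 4 of 84 (0.584%), and it was 10 with DESeq2 (2.15%), 8 with limma-voom (0.927%), 20 without a filter (3.79%), 2 where 2 libraries had to reach 1 CPM (0.649%) and 12 with only the libraries compared (2.09%). In males it was 0 (0.205%), and 5 with DESeq2 (1.56%) and 10 without a filter (3.03%). In the mean of both sexes it was 3 (1.75%), and 10 with DESeq2 (3.73%), 22 without a filter (5.42%) and 6 with a robust prior (2.22%). For the difference between the sexes it was 0 (0.00602%), and 2 with DESeq2 (0.47%) and 8 without a filter (1.53%). Leaving out 1 library each gave 0 to 12 in females, 0 to 5 in males, 0 to 15 in the mean and 0 to 3 for the difference. The causes were not tested. Of females against males the count of 22 (15.8%) stayed within 21 and 31 in every fit of all 8 libraries. It varied further when 1 library was left out, and the share of all genes was not computed for its alternatives.

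With the replicate number as a block, the counts were 4 in females (0.506%) and 5 in the mean (1.42%), and Gm5524 in females had an adjusted p of 0.0554. Nothing in the labels pairs the libraries by number. Same-numbered female libraries did not deviate together (correlation -0.102). Crossed numbers as a block, chosen after seeing the data, gave 1 in females (0.47%) and 3 in the mean (1.34%).

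Log2 fold changes were rerun for the 3 lincRNAs included by name, for the 7 genotype calls and for some of the called sex differences, and none of these reversed. Some values that passed no test did. Without the first male floxed pool the male log2 fold change of B930025P03Rik went from -1.25 to 0.14 and that of Gm31583 from 0.18 to -0.13.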

Other observations

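Genes that host small RNAs were represented by Snhg6, Snhg12, Snhg20 and Epb41l4aos beside Mir17hg. Snhg6, Snhg12 and Snhg20 are known as hosts of small nucleolar RNAs. Snhg6 was at 7.06 to 11.1 CPM, Snhg12 at 6.84 to 11.1 CPM, Snhg20 at 7.07 to 8.78 CPM and Epb41l4aos at 5.82 to 7.53 CPM over the 8 libraries. In the wider list of host genes, 24 were tested, and 0 passed the edgeR test in females, in males or in their mean. At an unadjusted p under 0.05 there were 5, 4 and 5 of 24, where 14.1, 11.8 and 18.2% of all genes had such a p. DESeq2 called 0, 2 and 2, and limma-voom 1, 0 and 0. Between the sexes 2 of 24 were higher in females (background 7.69%) and 3 lower (background 8.14%). Mature microRNAs also lie within the bounds of 4 lincRNAs beside Mir17hg: E130102H24Rik (miR-101a), 6720427I07Rik (let-7d), Snhg20 (miR-6516) and 2900076A07Rik (miR-1839). E130102H24Rik was at 5.59 to 7.69 CPM, 6720427I07Rik at 2.37 to 5.17 CPM and 2900076A07Rik at 3.23 to 4.18 CPM, with LKO and floxed libraries overlapping in at least 1 sex for each.

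Gm26917, on chr17:39843013-39846341, was the most counted of the lincRNAs. It was at 187 and 158 CPM in female floxed, 199 and 285 in female LKO, 327 and 226 in male floxed, and 169 and 222 CPM in male LKO livers. The annotated rRNA gene CT010467.1, from the same list of rRNA-derived genes as Gm26917, ranged from 2836 to 5119 CPM in the same libraries. Gm26917 differed by 0.49 in females and -0.50 in males (log2), and neither passed the edgeR test (adjusted p = 0.366 and 0.421). C730027H18Rik, 9.04 kb from Bicc1, had a log2 fold change of 0.40 in the mean of both sexes (edgeR adjusted p = 0.0528), while Bicc1, an RNA-binding protein, fell by 0.81 (adjusted p = 0.0225). Bicc1 did not pass in females or in males alone (adjusted p = 0.101 and 0.125). How its call depends on single libraries is not given here.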
